A study of Mus musculus with 18 samples.

Results

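The mRNA levels of 9 factors of nonsense-mediated mRNA decay (NMD) were compared, and the activity of the pathway itself was not measured. The 9 were Upf1, Upf2, Upf3a, Upf3b, Smg1, Smg5, Smg6, Smg8 and Smg9. They were taken by gene symbol from the 23420 symbols of the count table by their place in the pathway. All 9 had enough reads to enter the test, which covered 11762 genes. The libraries came from NIH-3T3 cells, an immortalized mouse fibroblast line, either wild-type (WT) or with Nrf1 (gene symbol Nfe2l1) knocked out by CRISPR/Cas9 (Nrf1-KO). Each line received DMSO as the vehicle or 200 nM carfilzomib (CFZ), an irreversible inhibitor of the proteasome, for 6 or 24 h. This gave 6 groups of 3 biological replicates and 18 libraries. The Nrf1-KO cells are a single line, and the number of clones behind it is not given in the sources used here, so that an effect of the edit and any other difference between the lines cannot be told apart. The DMSO libraries carry no time of their own, and the same 3 of each line served as controls for both CFZ times.

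NMD removes mRNAs on which translation stops too early, and it also tunes the level of many normal transcripts. A ribosome that stops upstream of an exon junction complex, or ahead of a long 3′ untranslated region, brings the helicase UPF1 together with UPF2 and UPF3A or UPF3B. The kinase SMG1, held in a complex with SMG8 and SMG9, then phosphorylates UPF1, and the phosphorylated helicase recruits the endonuclease SMG6 and the adaptor SMG5. The mRNAs of several of these factors are themselves known substrates of the pathway, so that the factors are tuned by the process they carry out.

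Library totals ran from 8333148 to 23917081 counts (median 14419832), which put at least 196 reads on every one of the 9 factors in every library. The edited gene Nfe2l1 was at 437 to 457 CPM (reads of a gene scaled to a common library size, TMM) in WT DMSO and at 174 to 185 CPM in Nrf1-KO DMSO, a fold change of 0.402 (edgeR adjusted p = 1.56e-24). In CFZ at 6 h it was at 628 to 650 CPM in WT and at 413 to 427 CPM in Nrf1-KO cells, and at 24 h it was at 555 to 580 CPM and 201 to 210 CPM. The Nrf1-KO libraries were thus below the WT libraries in each treatment, although the edited line still carried Nfe2l1 mRNA. All 7 fibroblast markers listed were expressed, with a summed level of 25093 to 34028 CPM in DMSO and of 7825 to 12717 CPM after 24 h of CFZ. The summed epithelial, leukocyte and endothelial markers stayed at or below 13.0, 5.77 and 3.83 CPM in every library. Not every marker fell: in Nrf1-KO cells at 24 h Vim was not called (log2 0.02), while the others of the list were lower than in DMSO. The part of the fall in the summed fibroblast markers in the results below was not tested. In bulk RNA, fewer cells of a kind and less RNA per cell cannot be told apart, and every level here is a share of its library. CFZ moved most of the transcriptome, and the counts of members below are therefore set beside the share of all genes called the same way.

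The 9 genes are spread over 6 chromosomes (GENCODE M21, GRCm38). Smg1 (chr7:118131308-118243670, minus strand) and Smg9 (chr7:24399619-24422778, plus strand) share a chromosome, as do Smg6 (chr11:74925823-75164448, plus) and Smg8 (chr11:87077732-87086774, minus), and Upf1 (chr8:70331525-70353278, minus) and Upf3a (chr8:13785615-13799193, plus). Upf2 (chr2:5951469-6056703, plus), Smg5 (chr3:88336260-88362338, plus) and Upf3b (chrX:37091678-37110322, minus) stand alone. Smg1 carries a 3′ untranslated region of 4233 bases in its principal transcript, longer than that of 95.31% of protein-coding genes, whereas that of Smg8 is 221 bases, longer than 24.4% of them. An open reading frame that starts and ends within the 5′ untranslated region is present in the principal transcripts of Smg5 and Smg9. It is absent from the other 7, beside 43.08% of all protein-coding genes that have one. Upstream frames that run on into the coding sequence were not counted. Transcripts annotated as NMD targets are listed for Smg1, Smg5 and Smg6, with 1 each, and 20.31% of protein-coding genes list at least 1. Exons of Upf1 overlap genes on the opposite strand over 1.47% of their bases (Cers1 and Gdf1) and those of Smg6 over 2.88% (Srr and Gm12333). Whether the counting used strand is not given in the sources used here, so reads in those stretches could belong to either gene.

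The upstream sequences of the SMG1 kinase complex (Smg1, Smg8 and Smg9) are printed because the largest fold change of each comparison with DMSO belonged to one of them, and that of Smg5 because its fold change differed between the lines. Each run holds the 250 bases before the gene's start, 5′ to 3′ on the gene's strand (RefSeq, GRCm38.p6), with matches to a searched motif in capitals. All 9 members were matched by symbol.
Smg1 (chr7:118243638-118243887, minus strand): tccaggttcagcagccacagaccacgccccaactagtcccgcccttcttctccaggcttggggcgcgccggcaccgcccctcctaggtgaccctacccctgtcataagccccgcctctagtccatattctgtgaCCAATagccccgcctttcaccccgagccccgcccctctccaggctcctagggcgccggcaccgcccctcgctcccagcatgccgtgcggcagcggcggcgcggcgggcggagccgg
Smg8 (chr11:87086778-87087027, minus strand): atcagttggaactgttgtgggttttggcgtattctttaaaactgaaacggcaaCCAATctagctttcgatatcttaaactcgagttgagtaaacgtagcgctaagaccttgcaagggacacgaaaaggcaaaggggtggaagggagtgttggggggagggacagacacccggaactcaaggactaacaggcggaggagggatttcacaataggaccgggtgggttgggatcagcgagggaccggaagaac
Smg9 (chr7:24399378-24399627, plus strand): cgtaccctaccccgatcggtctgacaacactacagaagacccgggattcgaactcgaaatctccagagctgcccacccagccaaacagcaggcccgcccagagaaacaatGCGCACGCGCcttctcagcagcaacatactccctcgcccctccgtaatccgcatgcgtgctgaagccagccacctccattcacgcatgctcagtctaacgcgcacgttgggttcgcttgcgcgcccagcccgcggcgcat
Smg5 (chr3:88336010-88336259, plus strand): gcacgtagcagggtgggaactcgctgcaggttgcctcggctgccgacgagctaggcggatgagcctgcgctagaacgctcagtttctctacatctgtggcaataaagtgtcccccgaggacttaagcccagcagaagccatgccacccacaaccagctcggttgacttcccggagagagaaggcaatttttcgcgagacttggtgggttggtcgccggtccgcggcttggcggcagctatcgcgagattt
The capitals mark CCAAT in Smg1 and Smg8 and a site of NRF-1 in Smg9, the nuclear respiratory factor, which is not the Nrf1 edited here. Across the 9 windows CCAAT was found in 4 (Smg1, Smg8, Upf3a and Upf3b) and the NRF-1 site in 3 (Smg9, Smg6 and Upf1), on either strand. Among 32851 mouse promoters of the same length, 33.9% held CCAAT and 4.98% held the NRF-1 site. None of the 9 held an antioxidant response element (ARE, TGACNNNGC, in 10.2% of all promoters), AP-1 (TGACTCA, in 4.46%), CRE (TGACGTCA, in 1.55%), a C/EBP-ATF site (TGATGNAAT, in 0.816%), a heat shock element (in 0.466%), an E-box (CACGTG, in 6.02%) or a YY1 site (in 0.207%). The windows were 50.8% to 72.8% G and C, beside a median of 52.4% over all promoters. A match describes letters and not a bound site.

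CFZ raised the mRNAs of most NMD factors in both lines, and in each comparison with DMSO the largest fold change belonged to Smg1 or Smg9 of the kinase complex. In WT cells at 6 h, 8 of the 9 members were higher than in DMSO and 0 were lower, where 35.6% of all genes tested were called higher and 36.2% lower. At 24 h in WT cells 7 were higher and 0 lower, beside 43.2% and 40.5% of all genes. In Nrf1-KO cells 8 were higher and 0 lower at 6 h (34.5% and 35.0% of all genes), and all 9 were higher at 24 h (44.4% and 41.1% of all genes). No member was lower in these comparisons at an unadjusted p under 0.05 either, and none was lower with DESeq2, which called 6, 7, 7 and 9 members higher. The median log2 fold change of the 9 was 0.49 and 0.59 in WT cells and 0.34 and 0.52 in Nrf1-KO cells at 6 and 24 h, beside a median over all genes between -0.02 and 0.03. Scaling moved that balance: in WT cells at 6 h, upper-quartile scaling put the all-gene median at -0.13 and the unadjusted library size put it at -0.15, the members' median then 0.38 and 0.36, and the share of called genes that were higher 37.9% and 35.4% in place of 49.6%. With library size alone that share went from 49.7% to 36.4% in Nrf1-KO cells at 6 h and from 52.0% to 41.6% at 24 h, and 6 and 7 members were called higher. The median size of the change, its sign set aside, was 0.49 for the members and 0.33 for all genes in WT cells at 6 h. It was 0.59 and 0.56 in WT cells at 24 h, and in Nrf1-KO cells 0.34 and 0.30 at 6 h and 0.52 and 0.58 at 24 h. Except in WT cells at 6 h, the members thus stood apart by direction more than by size.

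**Figure D1:**
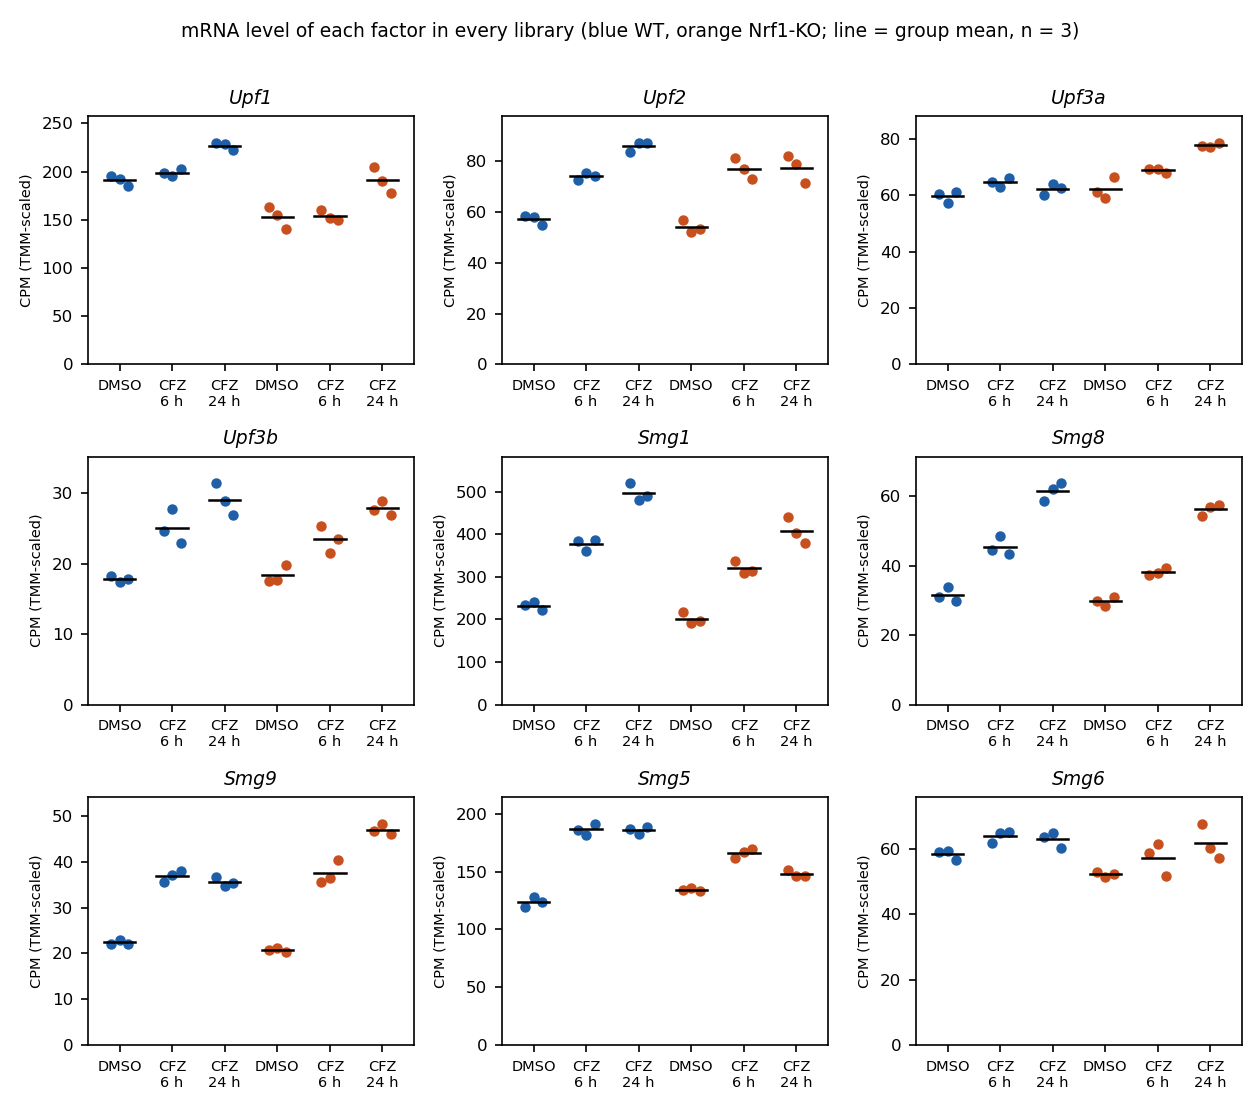
TMM-scaled CPM (vertical axis, starting at 0 in each panel) of the 9 NMD factors in each of the 18 libraries, with WT in blue, Nrf1-KO in orange, 1 point per library and a line at each group mean. Smg1, Smg8, Smg9, Smg5, Upf2 and Upf3b libraries in CFZ all lie above those in DMSO of the same line, while Upf3a and Smg6 span a narrow range over all 6 groups.

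Smg1, the kinase that phosphorylates UPF1, had the largest rise of the 9 in WT cells at 24 h. It was at 233, 241 and 223 CPM in the WT DMSO libraries, at 383, 360 and 386 CPM at 6 h of CFZ and at 520, 480 and 491 CPM at 24 h. In Nrf1-KO cells the libraries were at 217, 192 and 196 CPM in DMSO, at 338, 309 and 314 CPM at 6 h and at 440, 402 and 380 CPM at 24 h. No CFZ library overlapped a DMSO library of its line, and the 6 and 24 h libraries did not overlap either. The fold changes against DMSO were 1.62 at 6 h and 2.13 at 24 h in WT cells (log2 1.09 ± 0.049 SE at 24 h, edgeR adjusted p = 1.3e-19), and 1.59 and 2.02 in Nrf1-KO cells (log2 1.01 ± 0.049 SE at 24 h, edgeR adjusted p = 9.96e-19).

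Smg8, a subunit that restrains the kinase, followed the same course at a lower read level. Its WT libraries read 31.0, 33.8 and 29.8 CPM in DMSO, 44.4, 48.4 and 43.4 CPM at 6 h and 58.7, 62.2 and 63.7 CPM at 24 h. The Nrf1-KO libraries read 29.9, 28.3 and 31.0 CPM in DMSO, 37.2, 37.9 and 39.3 CPM at 6 h and 54.4, 57.0 and 57.6 CPM at 24 h. The groups did not overlap within either line. At 24 h the fold was 1.96 in WT cells and 1.89 in Nrf1-KO cells (edgeR adjusted p = 2.61e-17 and 7.92e-17), and the difference between the lines in this response, -0.05 on the log2 scale with a 95% interval of -0.20 to 0.10, was not called.

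Smg9, the partner of SMG8 in the complex, rose early and then parted between the lines. Its WT libraries read 22.2, 23.0 and 22.1 CPM in DMSO, 35.6, 37.2 and 38.1 CPM at 6 h and 36.7, 34.8 and 35.5 CPM at 24 h. The Nrf1-KO libraries read 20.8, 21.2 and 20.2 CPM in DMSO, 35.6, 36.4 and 40.5 CPM at 6 h and 46.7, 48.4 and 46.1 CPM at 24 h. The WT libraries at 6 and 24 h overlapped, whereas every Nrf1-KO library at 24 h lay above every library at 6 h and above every WT library. The fold at 24 h was 1.58 in WT cells (edgeR adjusted p = 1.32e-12) and 2.28 in Nrf1-KO cells (edgeR adjusted p = 5.92e-20), the largest of the 9 in that line.

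Of the factors that act after phosphorylation, Smg5 moved furthest in WT cells and Smg6 hardly at all. Smg5, the adaptor that links UPF1 to decay, read 119, 128 and 124 CPM in WT DMSO, 186, 182 and 192 CPM at 6 h and 187, 183 and 189 CPM at 24 h. In Nrf1-KO cells it read 134, 136 and 133 CPM in DMSO, 162, 167 and 170 CPM at 6 h and 151, 146 and 146 CPM at 24 h. The WT rise held at 24 h, while the Nrf1-KO libraries at 24 h had come down below those at 6 h and still lay above DMSO. The fold against DMSO was 1.51 at 6 h and 1.5 at 24 h in WT cells, and 1.24 and 1.1 in Nrf1-KO cells (edgeR adjusted p = 0.000387 for the last). This last call was lost with upper-quartile scaling (log2 0.03, edgeR adjusted p = 0.389), and with scaling by library size alone the value turned negative (-0.04).

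Smg6, the endonuclease that cuts near the premature stop, ranged over all 18 libraries from 51.4 to 67.7 CPM. Its mean was 58.5 ± 1.5 CPM (SD, n = 3) in WT DMSO, 64.0 ± 1.90 at 6 h and 62.9 ± 2.48 at 24 h, and 52.2 ± 0.765, 57.3 ± 5.09 and 61.7 ± 5.43 CPM in Nrf1-KO cells. The fold changes in CFZ were 1.09, 1.07, 1.11 and 1.18 (WT at 6 and 24 h, Nrf1-KO at 6 and 24 h), of which the second was not called (edgeR adjusted p = 0.0739). The Nrf1-KO call at 24 h was lost with library size alone (log2 0.055, edgeR adjusted p = 0.339). Both 6 h calls were lost with DESeq2, with other scalings, without the expression filter and, in WT cells, without any 1 of DMSO replicate 3 and CFZ replicates 2 and 3 (log2 0.11 to 0.12) and, in Nrf1-KO cells, without any 1 of DMSO replicate 2 and CFZ replicates 1 and 2 (0.10 to 0.14).

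**Figure D2:**
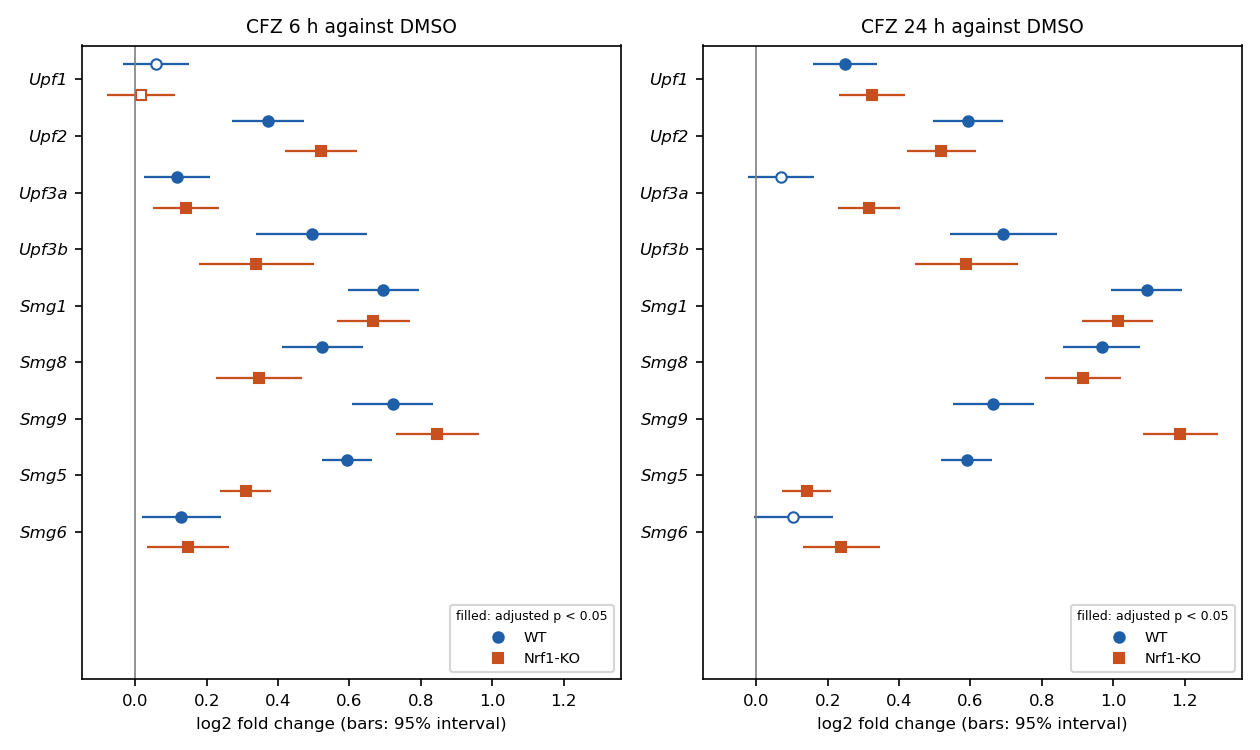
Log2 fold change of CFZ against DMSO (horizontal axis, bars for the 95% interval) at 6 h (left) and 24 h (right) for the 9 factors, in WT (blue circles) and Nrf1-KO cells (orange squares), with filled symbols for an adjusted p under 0.05. Smg1, Smg8 and Smg9 lie furthest right at 24 h in Nrf1-KO cells, and Smg5 in Nrf1-KO cells lies near 0.14.

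Among the UPF factors, Upf2 and Upf3b had larger fold changes in CFZ than Upf1 in each line and at each time. Upf1, the helicase at the centre of the pathway, read 196, 192 and 185 CPM in WT DMSO, 199, 195 and 202 CPM at 6 h and 230, 229 and 222 CPM at 24 h. Its Nrf1-KO libraries read 163, 155 and 141 CPM in DMSO, 160, 152 and 149 CPM at 6 h and 204, 190 and 178 CPM at 24 h. DMSO and 6 h libraries overlapped in both lines, and the 24 h libraries lay above them. At 6 h the log2 fold change was 0.06 (95% interval -0.03 to 0.15) in WT cells and 0.02 (-0.08 to 0.11) in Nrf1-KO cells, with neither called, and at 24 h the fold was 1.19 and 1.25 (edgeR adjusted p = 7.03e-06 and 8.72e-08).

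Upf2, the scaffold between UPF1 and the UPF3 proteins, rose in all 4 comparisons. Its mean went from 57.1 ± 1.99 CPM (SD, n = 3) in WT DMSO to 74.0 ± 1.36 at 6 h and 86.1 ± 1.92 at 24 h, and from 54.1 ± 2.51 to 77.1 ± 4.31 and 77.4 ± 5.34 CPM in Nrf1-KO cells. The folds were 1.29 and 1.51 in WT cells and 1.43 and 1.43 in Nrf1-KO cells. The WT libraries were thus higher at 24 h than at 6 h (log2 0.22, edgeR adjusted p = 0.000141), and the Nrf1-KO libraries of those times overlapped.

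Upf3b, the X-linked paralog that binds the exon junction complex and promotes decay, also rose in all 4. It had the fewest reads of the 9, from 196 to 522 in a library. Its WT libraries read 18.3, 17.4 and 17.8 CPM in DMSO, 24.6, 27.7 and 23.0 CPM at 6 h and 31.4, 29.0 and 26.9 CPM at 24 h, with folds of 1.41 and 1.62. In Nrf1-KO cells it read 17.5, 17.6 and 19.9 CPM, then 25.3, 21.5 and 23.5 CPM, then 27.6, 29.0 and 27.0 CPM, with folds of 1.26 and 1.5. Every CFZ library lay above every DMSO library in both lines.

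Upf3a, the paralog with weaker activity in decay, had the smallest fold change of the UPF factors in WT cells at 24 h. Its WT libraries read 60.6, 57.2 and 61.1 CPM in DMSO, 64.9, 62.9 and 66.2 CPM at 6 h and 60.2, 64.0 and 62.8 CPM at 24 h. The Nrf1-KO libraries read 61.1, 59.0 and 66.4 CPM in DMSO, 69.5, 69.4 and 67.9 CPM at 6 h and 77.6, 77.3 and 78.6 CPM at 24 h. In the knockout line the 3 groups did not overlap, while in WT cells the 24 h libraries overlapped DMSO. The WT fold was 1.08 at 6 h (edgeR adjusted p = 0.0217) and 1.05 at 24 h (edgeR adjusted p = 0.159), and the Nrf1-KO fold was 1.1 and 1.24 (edgeR adjusted p = 0.00616 and 4.27e-08). The WT call at 6 h was lost with DESeq2 (0.09), with other scalings, without the expression filter, without WT DMSO replicate 2 (0.09) and without WT CFZ 6 h replicate 3 (0.11). The Nrf1-KO call at 6 h was lost with upper-quartile scaling (0.069), library size alone (0.030) and no expression filter (0.093).

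The ratio of Upf3a to Upf3b reads, which is free of library scaling, was lower in the CFZ libraries of both lines. In WT cells there were 3.32, 3.28 and 3.44 Upf3a reads for each Upf3b read in DMSO, 2.64, 2.27 and 2.88 at 6 h and 1.92, 2.21 and 2.33 at 24 h. In Nrf1-KO cells there were 3.48, 3.35 and 3.34 in DMSO, 2.74, 3.22 and 2.89 at 6 h and 2.81, 2.67 and 2.92 at 24 h. The DMSO libraries of both lines lay between 3.28 and 3.48 and above every CFZ library. The log2 ratio differed from DMSO by -0.37 and -0.64 in WT cells and by -0.20 and -0.28 in Nrf1-KO cells at 6 and 24 h, each with p = 0.1 in a two-sided exact permutation test, the smallest that 3 libraries against 3 allow (0.18 after Benjamini-Hochberg adjustment over 9 comparisons). At 24 h the ratio was higher in Nrf1-KO than in WT cells by 0.38 on the log2 scale, again without overlap and again at the smallest p of 0.1. This test cannot reach 0.05 with 3 libraries against 3, and no model over all 18 libraries was run on the ratio.

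**Figure D3:**
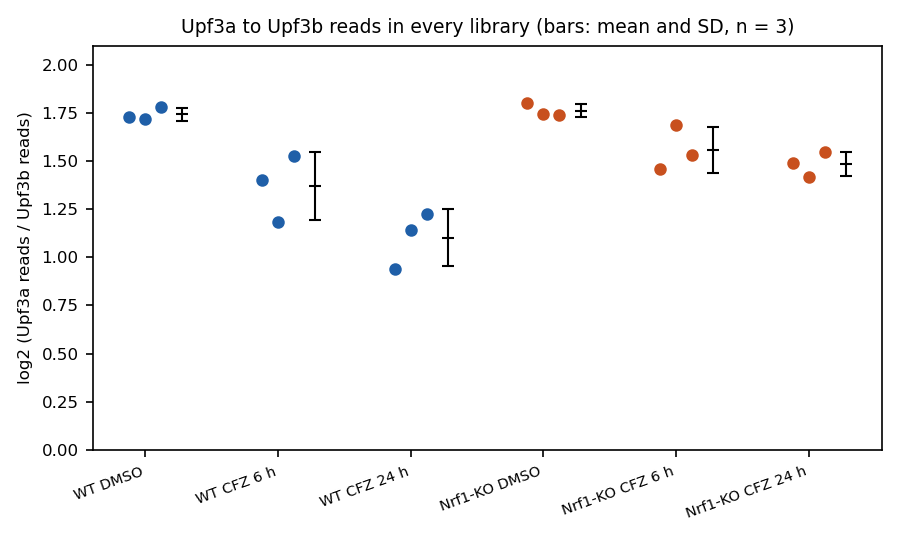
Log2 ratio of Upf3a to Upf3b reads (vertical axis) in every library of the 6 groups, with WT in blue, Nrf1-KO in orange and black bars for the mean and SD of 3 libraries. The DMSO groups of both lines sit near 1.75, and the WT group at 24 h of CFZ is the lowest at 1.1 ± 0.147 (SD).

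Between 6 and 24 h of CFZ, 5 members were higher and 0 lower at 24 h in WT cells, where 36.9% of all genes were called higher and 35.4% lower. None was lower at an unadjusted p under 0.05 or with DESeq2. The 5 were Smg8 (fold 1.36), Smg1 (1.32), Upf2 (1.16), Upf3b (1.15) and Upf1 (1.14), and the call of Upf3b was lost without any 1 of WT CFZ 6 h replicates 1 and 3 and WT CFZ 24 h replicate 1 (log2 0.10 to 0.15). In Nrf1-KO cells 6 were higher and 1 lower, beside 38.7% and 38.3% of all genes. The 6 were Smg8 (fold 1.48), Smg1 (1.27), Smg9 (1.27), Upf1 (1.24), Upf3b (1.19) and Upf3a (1.13), and the one that fell was Smg5 (0.890, edgeR adjusted p = 7.2e-05). The call of Upf3b was lost here too, without Nrf1-KO CFZ 6 h replicate 2 (log2 0.18, edgeR adjusted p = 0.0529). For Smg5 and Smg9 in WT cells and Upf2 in Nrf1-KO cells no change from 6 to 24 h was called, with 95% intervals of -0.07 to 0.07, -0.16 to 0.05 and -0.10 to 0.10 on the log2 scale.

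Without CFZ, 4 of the 9 were called different between the lines, and the members differed no more than other genes. The median size of the log2 difference, its sign set aside, was 0.12 for the members and 0.17 for all genes. In DMSO 1 member was higher and 3 were lower in Nrf1-KO cells, beside 25.7% and 29.1% of all genes. Of the called genes 46.9% were higher with TMM scaling and 57.7% with library size alone, which called 2 members higher and 2 lower, with Upf3a added (log2 0.12, edgeR adjusted p = 0.0272) and Smg6 lost (-0.12, edgeR adjusted p = 0.068). Upf1 had the largest difference, at 0.797 times the WT level (log2 -0.33 ± 0.045 SE, edgeR adjusted p = 2.71e-07), and its libraries in the 2 lines did not overlap. Smg1 was at 0.868 and Smg6 at 0.892 times the WT level, and Smg5 was 1.08-fold higher. The call of Smg6 was lost without WT DMSO replicate 1 (-0.14, edgeR adjusted p = 0.0609).

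In CFZ at 6 h, 0 members were higher and 5 lower in Nrf1-KO than in WT cells, beside 30.5% and 30.8% of all genes. None was higher at an unadjusted p under 0.05 or with DESeq2, which called 4 lower. Of the called genes 49.8% were higher with TMM scaling and 60.8% with library size alone, and with the latter Upf2 and Upf3a were called higher (log2 0.13 and 0.16). Upper-quartile scaling also called both higher (0.11 and 0.14), and either scaling gave 2 members higher and 4 lower. The 5 that were lower were Upf1 (0.774 times the WT level), Smg8 (0.837), Smg1 (0.851), Smg5 (0.891) and Smg6 (0.904). The call of Smg6 was lost with DESeq2, with both other scalings and without any 1 of WT CFZ 6 h replicates 2 and 3 and Nrf1-KO CFZ 6 h replicate 3 (log2 -0.14 to -0.09). At 24 h 2 members were higher and 5 lower, beside 35.6% and 36.4% of all genes. Smg9 (1.33-fold) and Upf3a (1.24-fold) were higher, and Smg5 (0.794), Smg1 (0.820), Upf1 (0.840), Upf2 (0.897) and Smg8 (0.912) were lower. Upf2 lost its call without Nrf1-KO CFZ 24 h replicate 3 (-0.09), and Smg8 without WT CFZ 24 h replicate 3 or Nrf1-KO CFZ 24 h replicate 1 (-0.11 and -0.09) and with DESeq2 or upper-quartile scaling. Upf1 and Smg1 were thus lower in the knockout line in each of the 3 treatments.

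Whether the lines responded differently to CFZ was tested as the interaction of line and CFZ, the Nrf1-KO log2 fold change minus that of WT. At 6 h 0 members were higher and 1 was lower, beside 19.8% and 18.4% of all genes. With DESeq2 these counts were again 0 and 1, and at an unadjusted p under 0.05 they were 1 and 2. The 1 called was Smg5, whose rise was smaller in Nrf1-KO cells by 0.28 on the log2 scale (-0.28 ± 0.049 SE, edgeR adjusted p = 2.36e-05). At 24 h 2 were higher and 1 was lower, beside 29.7% and 30.0% of all genes. Smg9 responded more in Nrf1-KO cells by 0.52 (± 0.076 SE, edgeR adjusted p = 6.14e-07) and Upf3a by 0.25 (± 0.062 SE, edgeR adjusted p = 0.000957), and Smg5 responded less, with a difference of -0.45 (± 0.049 SE, edgeR adjusted p = 2.18e-09). For Smg1, the difference between the lines was -0.03 (95% interval -0.17 to 0.11) at 6 h and -0.08 (-0.22 to 0.06) at 24 h, and for Upf1 it was -0.04 (-0.17 to 0.09) and 0.08 (-0.05 to 0.20), none of them called. With library size alone the Smg1 difference at 24 h was -0.16 and was called (edgeR adjusted p = 0.0424), which made 2 members higher and 2 lower.

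**Figure D4:**
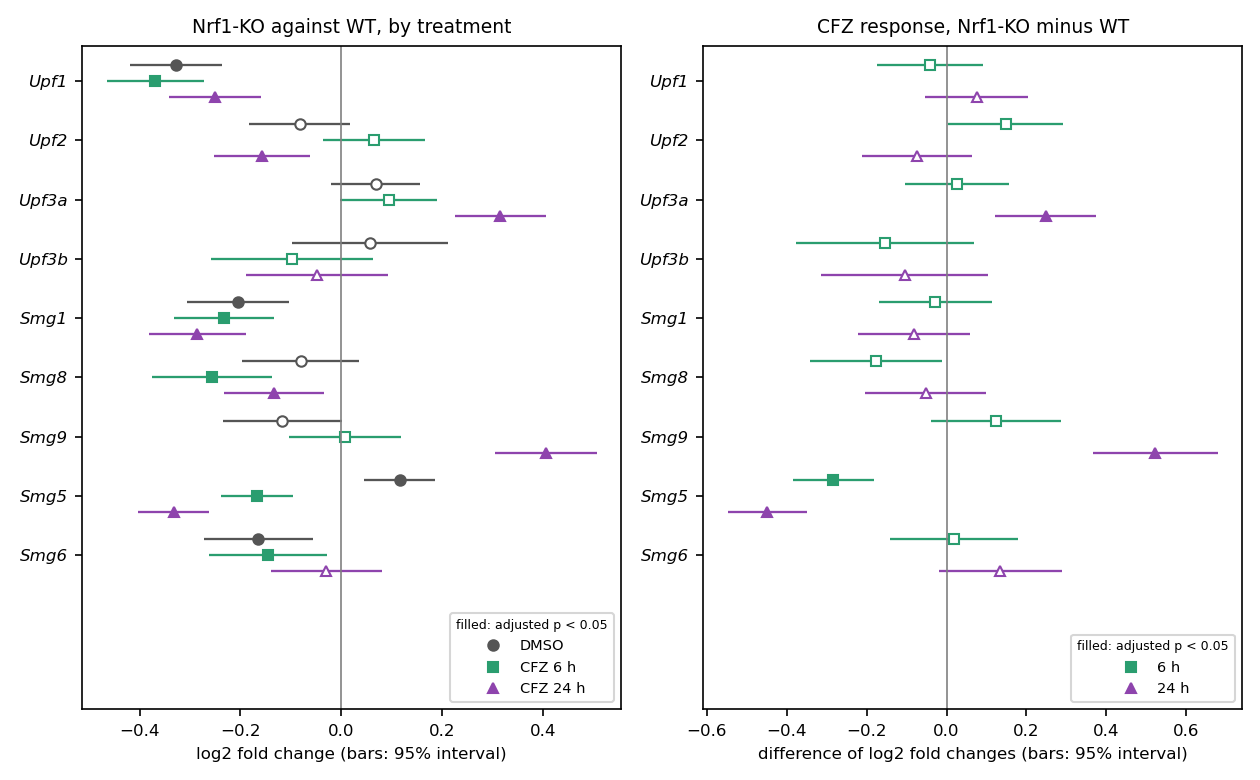
Left, log2 fold change of Nrf1-KO against WT in DMSO (grey circles), CFZ 6 h (green squares) and CFZ 24 h (purple triangles), and right, the difference between the lines in the log2 fold change of CFZ against DMSO at 6 and 24 h, for the 9 factors with 95% intervals and filled symbols for an adjusted p under 0.05. Upf1 and Smg1 are below 0 at left in all 3 treatments, and at right Smg5 is below 0 at both times while Smg9 and Upf3a are above 0 at 24 h.

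In order of level over the 6 groups, Smg1 had the widest span of the 9, with the highest group mean (WT CFZ 24 h) 2.46 times the lowest (Nrf1-KO DMSO). The span was 2.27 times for Smg9, 2.07 for Smg8, 1.63 for Upf3b, 1.59 for Upf2, 1.51 for Smg5, 1.49 for Upf1, 1.31 for Upf3a and 1.23 for Smg6. Nrf1-KO DMSO was the lowest group for 6 of the 9, and WT DMSO for Upf3a, Upf3b and Smg5. For Smg6, every group overlapped its neighbour in this order, and for Smg5 only the highest 2, WT at 6 and 24 h of CFZ, did. For Smg1 only WT at 6 h and Nrf1-KO at 24 h overlapped among neighbours, and for Smg8 only the DMSO groups.

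Levels can be set between genes only per length, and per kilobase of the principal transcript Upf1 was the highest of the 9 in WT DMSO at 41.3 ± 1.2 CPM (SD, n = 3). Upf3a was at 29.0 ± 1.03, Smg5 at 27.8 ± 1.0, Smg1 at 14.9 ± 0.590, Upf2 at 11 ± 0.385, Smg9 at 10.0 ± 0.235, Smg6 at 10.0 ± 0.257, Smg8 at 9.81 ± 0.638 and Upf3b at 7.60 ± 0.180 CPM per kilobase. The libraries of Upf3a overlapped those of Smg5, and the libraries of Smg9, Smg6 and Smg8 overlapped each other. At 24 h of CFZ in WT cells Smg1 had reached 31.9 ± 1.33 CPM per kilobase, beside 49.1 ± 0.859 for Upf1, 41.8 ± 0.704 for Smg5 and 30.3 ± 0.944 for Upf3a. The order depends on the length used. When all annotated exon bases were counted, Upf3a was at 10.2 ± 0.360 CPM per kilobase in WT DMSO, Smg5 at 17.8 ± 0.640, Smg1 at 9.69 ± 0.383 (then below Upf2 at 10.4 ± 0.364), Smg9 at 6.06 ± 0.142 and Upf3b at 4.45 ± 0.105.

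Around the 9 factors, other genes of the pathway moved less evenly. Of 7 partners of the UPF and SMG proteins (Pnrc2, Dhx34, Nbas, Ruvbl1, Ruvbl2, Etf1 and Gspt1), 5 were higher and 2 lower after 6 h in WT cells, and 4 and 2 after 24 h. In Nrf1-KO cells these counts were 4 and 1, then 3 and 3, the last close to the shares of all genes (44.4% higher and 41.1% lower). For this and the next lists, the shares of all genes called higher and lower were 35.6% and 36.2% (WT, 6 h), 43.2% and 40.5% (WT, 24 h) and 34.5% and 35.0% (Nrf1-KO, 6 h). Their median log2 fold changes were 0.37, 0.42, 0.23 and 0.087. In WT cells the extremes were Nbas (0.60) and the helicase Dhx34 (-0.40) at 6 h, and Ruvbl2 (0.84) and Pnrc2 (-0.94), which links UPF1 to decapping, at 24 h. In Nrf1-KO cells they were the translation termination factor Etf1 (0.79) and Dhx34 (-0.15, not called) at 6 h, and Etf1 (0.77) and its partner Gspt1 (-0.61) at 24 h.

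Of the 6 genes of the exon junction complex (Eif4a3, Magoh, Magohb, Rbm8a, Casc3 and Rnps1), 5 were higher in WT cells at either time and Magohb was not called, with a median of 0.36 at each. In Nrf1-KO cells 3 were higher and 1 lower at 6 h and 3 higher and 3 lower at 24 h, again beside 44.4% and 41.1% of all genes at 24 h, with medians of 0.13 and 0.02. Rbm8a, the Y14 subunit of the core, rose most at 6 h in both lines (0.74 and 0.73), and Magohb had the lowest value in each of the 4 comparisons (-0.12, -0.01, -0.24 and -0.38), called only in the last. Of 10 genes of decapping, deadenylation and 5′ to 3′ decay, 6 were higher and 2 lower in WT cells at 6 h and 8 and 2 at 24 h, and 3 and 1 and then 7 and 1 in Nrf1-KO cells. The decapping scaffold Edc4 rose in all 4 comparisons (0.44, 0.86, 0.55 and 1.0). Dcp1b was the lowest in each (-1.09, -2.53, -0.40 and -2.01), on at most 37 reads in a library and as few as 2, and the third of these values was not called.

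Transcripts widely described as NMD substrates were mostly higher in CFZ. Of 12 listed, 11 were tested and Zfas1 was not analysed here. In WT cells 9 were higher and the other 2 not called at 6 h, and 10 were higher and 1 lower at 24 h. In Nrf1-KO cells all 11 were higher at 6 h, and 10 were higher and 1 lower at 24 h. The medians were 0.79, 1.46, 0.96 and 2.1. Atf3, a transcription factor of the stress response, had the largest log2 fold change in all 4 (4.22, 4.09, 6.11 and 7.16), with a mean of 7.97 ± 0.469 CPM (SD, n = 3) in WT DMSO and 136 ± 2.16 CPM in WT cells at 24 h, and of 3.08 ± 0.0174 and 441 ± 29.5 CPM in the same groups of Nrf1-KO cells. Tbl2 had the lowest value in 3 of the 4 (-0.32 in WT cells at 24 h, and 0.24 and -0.32 in Nrf1-KO cells), and Upp1 in WT cells at 6 h (-0.24, not called). Several genes of this list, among them Atf3, Atf4, Ddit3 and Gadd45a, are also transcribed in response to stress, and the part of either process in their levels was not tested.

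**Figure D5:**
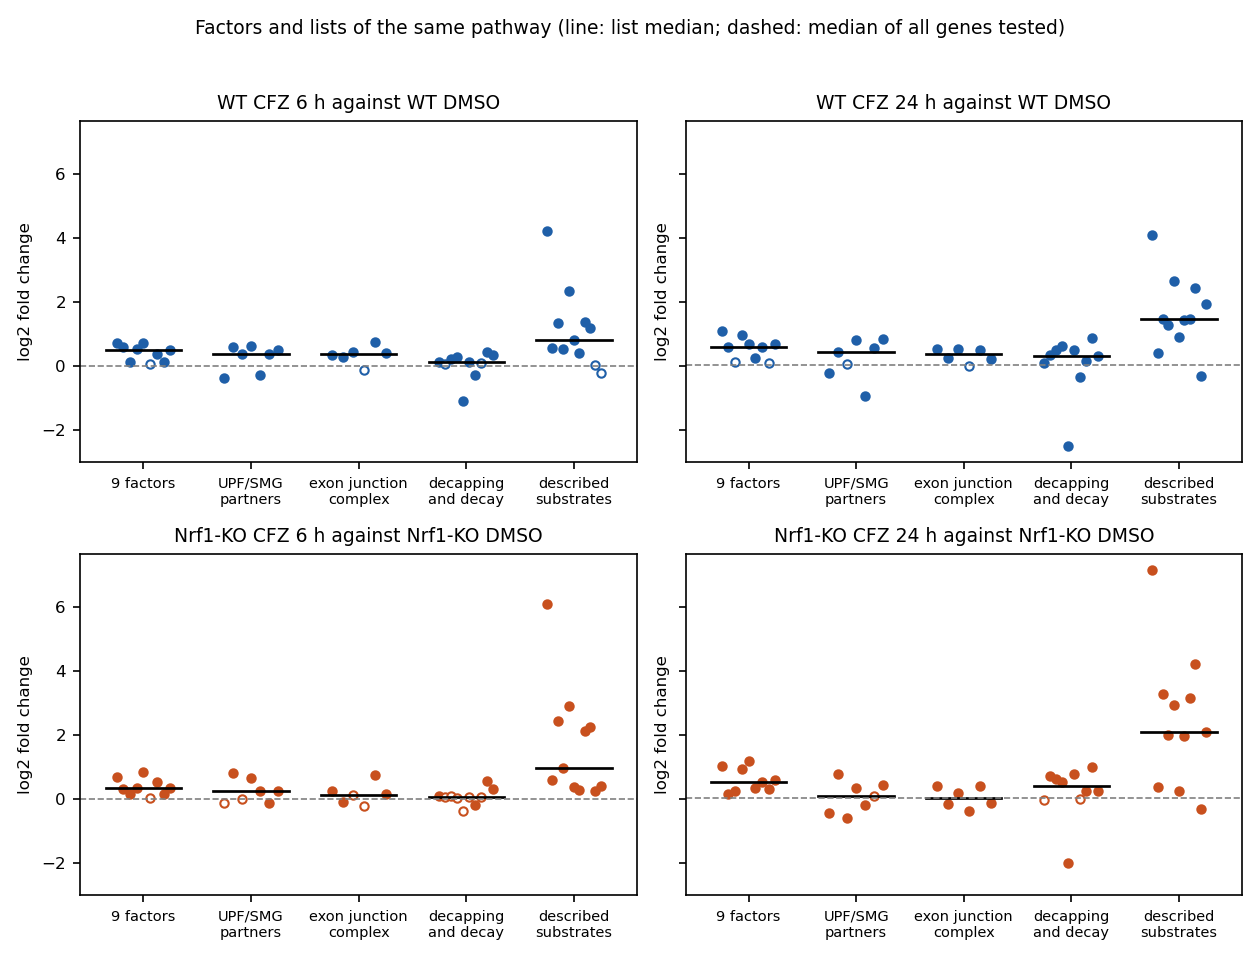
Log2 fold change of CFZ against DMSO (vertical axis) for the 9 factors and 4 lists of genes of the same pathway in WT (blue) and Nrf1-KO cells (orange) at 6 and 24 h, 1 point per gene, filled where the adjusted p was under 0.05, with a line at each list's median and a dashed line at the median of all genes tested. The described substrates spread furthest, up to 7.16 for Atf3, and the 9 factors lie between 0.02 and 1.19 in the 4 panels.

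The genes whose levels over the 18 libraries ran most like a member's were found by Pearson's r of log2 CPM, given as a measure of likeness with no test, since the 18 points fall into 6 groups and share the response to CFZ. For Smg1 they were Rrp12, Med13 and Golga4 (r = 0.992, 0.992 and 0.991), and 729 genes had an r of at least 0.9. For Smg8 they were Trmt1, Nr2c2ap and Srrt (0.987, 0.985 and 0.985), with 871 genes at 0.9 or above. Smg9 ran most like Sash1, Atf3 and Mdm2 (0.988, 0.986 and 0.985), with 454 genes at 0.9 or above. Of these 3, Atf3 is among the described substrates. Smg5 ran most like Traf3, Zfp64 and Ppil4 (0.986, 0.97 and 0.965). Upf2 ran most like Utp20, B230120H23Rik and Sf3a1 (0.984, 0.977 and 0.974), Upf3b like Kin, Ccdc88a and Zcchc6 (0.964, 0.959 and 0.959) and Upf1 like Stk10, Ipo4 and Supt16 (0.968, 0.965 and 0.96). Upf3a ran most like Prdm4, E130309D02Rik and Paxbp1 (0.944, 0.935 and 0.933), with 26 genes at 0.9 or above. Smg6 ran like Prrc2c and Spen (0.872 and 0.867), and 0 genes reached 0.9.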

How the data were processed

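RNA from the 18 libraries was sequenced as paired reads from a stranded mRNA kit and processed by the authors with STAR and DESeq2 through the RNA Express application, whose genome build, annotation, versions and use of strand are not given in the sources used here. The authors deposited 1 table of raw counts, whole reads for 23420 gene symbols (6577 at 0 throughout), and its columns were matched to samples through the labels. From these counts, edgeR 4.0.16 in R 4.3.3 was run after filterByExpr (count 10, total 15), with TMM scaling and 1 quasi-likelihood model of the 6 groups, which left 11762 genes. A gene was called at a Benjamini-Hochberg adjusted p under 0.05 over those genes, with no minimum fold. Levels are TMM-scaled CPM, and the SE was taken as |log2 fold change| over the square root of F. Replicates differed by more than counting noise in each of 18 pairs (chi-square over degrees of freedom 1.44 to 8.47), so none was taken as a repeat. The common biological coefficient of variation was 3.13%. Before use, the model was run on simulated counts in which few genes changed, and those in 1 group alone. That run does not test how the scaling behaves where most genes change.

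Of the motifs searched in promoters, those for NRF-1, heat shock and YY1 are given by name. The members, the lists of pathway genes and the tests were chosen with earlier results of these data known. Named beside the members were Nfe2l1, the genes of largest and smallest log2 fold change of each list, and the 3 genes of highest r with each member, and some items that this rule or a list would name are not reported here. Genes were matched by symbol to GENCODE M21 on GRCm38, and promoters to RefSeq on GRCm38.p6, neither of which need be the authors' annotation. Alternatives were DESeq2 1.42.0, upper-quartile scaling, library size alone, no expression filter, a mean count of at least 10, a fit of only the groups compared, a block for the replicate number, leaving out each library, and a minimum fold of 1.5.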

Additional observations from a re-analysis of the deposited data

Results flagged for a closer look

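Results were picked out here where edgeR called the interaction of line and CFZ at an adjusted p under 0.05, and no explanation was tested for any of them. Of all genes tested, 19.8% were called higher and 18.4% lower at 6 h, and 29.7% and 30.0% at 24 h. Among the 9 members 0 were higher and 1 lower at 6 h, and 2 and 1 at 24 h. Such calls were thus not more frequent among the members than among all genes. At 6 h the response of Smg5 was smaller in Nrf1-KO than in WT cells, with a difference of -0.28 on the log2 scale (adjusted p = 2.36e-05). At 24 h the same gene differed by -0.45 (adjusted p = 2.18e-09), and the fold against DMSO was 1.5 in WT and 1.1 in Nrf1-KO cells. Smg9 differed the other way at 24 h by 0.52 (adjusted p = 6.14e-07), with folds of 1.58 in WT and 2.28 in Nrf1-KO cells. Upf3a differed at 24 h by 0.25 (adjusted p = 0.000957), with folds of 1.05 and 1.24. These 4 calls held with DESeq2, the other scalings and filters, the block and each library left out, and none of the 4 differences reached a fold of 1.5.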

How the results depend on the processing

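Over the settings that changed the tool, scaling, filter, fit or libraries, most of the 99 values of the 9 members in 11 comparisons kept their direction and call, namely 91 with DESeq2, 83 with upper-quartile scaling, 80 with library sizes, 92 without the expression filter, 98 with a mean count of at least 10 and 99 with only the groups compared. The cause of the changed values was not tested.

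With a minimum fold of 1.5, the members called came to 3 and 2 at 6 h (WT and Nrf1-KO), 4 at 24 h in Nrf1-KO cells, and 0 between times, between lines and for both interactions, since the rule itself asks for a larger fold. For the interaction at 6 h, 2 were called with upper-quartile scaling, and 1 to 2 with a library left out (2 without WT DMSO replicate 2, WT CFZ 6 h replicate 1 or 3, or Nrf1-KO DMSO replicate 1). Of the values that changed sign, 3 were called in the model reported: Upf3a and Smg6 in WT cells at 6 h and Smg5 in Nrf1-KO cells at 24 h. With library size alone, the log2 fold changes in CFZ were -0.074 (Upf1), -0.015 (Upf3a) and -0.0027 (Smg6) in WT cells at 6 h, -0.037 (Upf3a) and -0.0014 (Smg6) in WT cells at 24 h, and -0.096 (Upf1, 6 h) and -0.042 (Smg5, 24 h) in Nrf1-KO cells. At 24 against 6 h in WT cells they were 0.024 (Smg5) and 0.0013 (Smg6), and the interaction at 24 h was -0.0015 (Upf1). With upper-quartile scaling they were -0.051 (Upf1, 6 h), -0.069 (Upf3a, 24 h) and -0.033 (Smg6, 24 h) in WT cells, -0.058 (Upf1, 6 h) in Nrf1-KO cells, 0.012 (Smg6, Nrf1-KO against WT at 24 h) and 0.0066 (Smg1, interaction at 6 h). With DESeq2 they were -0.0062 (Upf1, Nrf1-KO, 6 h), 0.0014 (Smg5, WT, 24 against 6 h) and 0.0029 (Upf2, Nrf1-KO, 24 against 6 h). Without the filter they were -0.034 (Upf1, Nrf1-KO, 6 h), -0.0015 (Smg9, Nrf1-KO against WT at 6 h) and -0.0023 (Smg6, interaction at 6 h), and with a mean count of at least 10 the value of Upf2 (Nrf1-KO, 24 against 6 h) was 0.00018.

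With 1 library left out, values that changed sign ranged from -0.047 to 0.064 (Upf1, Nrf1-KO, 6 h), -0.058 to 0.012 (Smg5) and -0.090 to 0.0093 (Smg6) in WT cells at 24 against 6 h, and -0.055 to 0.042 (Upf2, Nrf1-KO, 24 against 6 h). Between the lines they ranged from -0.020 to 0.095 (Upf3b, DMSO), -0.038 to 0.045 (Smg9, 6 h) and -0.079 to 0.037 (Smg6, 24 h), and for the interaction at 6 h from -0.10 to 0.0079 (Upf1), -0.020 to 0.085 (Upf3a), -0.085 to 0.028 (Smg1) and -0.034 to 0.076 (Smg6). None of these was called in the model reported.

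The replicate numbers are only names, as no label ties them to a shared batch and same-numbered libraries of different groups did not deviate together (mean r = 0.014 over 45 pairs, from -0.049 to 0.097). For 8 of 18 libraries, the mean r with libraries of the other groups was highest for those of the same number. With the replicate number as a block, 8 members were called in WT cells at 24 h (Smg6 added, log2 0.11) where the unblocked fit called 7, Upf2 (Nrf1-KO, 24 against 6 h) turned to 0.0020, and the other 10 counts of calls were as without the block. With 3 libraries a group, the exact permutation test of the Upf3a to Upf3b ratio cannot go below p = 0.1, and Upf3b had the fewest reads of the 9. The sign of that ratio's difference held with each library left out, except for the lines in DMSO (-0.00062 to 0.039).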

Other observations

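The exon junction complex and several partners of the UPF proteins answered CFZ differently in the 2 lines at 24 h, by the interaction test of edgeR (adjusted p under 0.05 for each gene counted or named here). Of the 6 exon junction genes, 5 had a lower log2 fold change in CFZ in Nrf1-KO than in WT cells (median difference of the 6 -0.35), where 30.0% of all genes tested were called in that direction and 29.7% in the other. Against DMSO, Eif4a3 and Rnps1 were called higher in WT cells (0.23 and 0.20) and lower in Nrf1-KO cells (-0.16 and -0.15). Magoh and Casc3 were higher in both lines, by less in Nrf1-KO cells, and Magohb was called only in Nrf1-KO cells, as lower (-0.38). The ATPase partner genes Ruvbl1 and Ruvbl2 differed by -0.47 and -0.41, the termination factor Gspt1 by -0.65 and Nbas by -0.48, while Pnrc2 differed by 0.73 and Etf1 by 0.35. Among the described substrates 7 responded more and 1 less in Nrf1-KO cells at 24 h, with Atf3 at 3.07 and Gadd45b at -0.63. No explanation of these values was tested. The genes named here other than the extremes of each list were named after their values were seen.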
